A study of Mus musculus with 10 samples.

Results

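The 10 genes described here mark T cells and their main subsets, and they were found by symbol among the 54532 genes of the FPKM table (fragments corrected for gene length and sequencing depth) of whole lung. They are Cd3d, Cd3e, Cd3g and Lck, which T cells share, with Cd28 and Cd5, Cd4 for helper cells, Cd8a and Cd8b1 for cytotoxic cells, and Foxp3 for regulatory cells. The lungs came from wild-type C57BL/6J mice at postnatal day 30. In the increased pulmonary flow (IPF) group, 5 libraries came from mice that had an aortocaval fistula made at postnatal day 7, in which the abdominal aorta is punctured into the inferior vena cava. In the sham group, 5 libraries came from mice that had the same abdominal operation without the puncture. All pups had isoflurane anesthesia and a laparotomy, so both groups share these. The methods state that both sexes were used. The labels number the libraries of a group but do not tie each to an animal, so p-values measure the spread between libraries. The comparison asked whether mRNA of T cells and of their subsets differed between the groups.

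A T cell recognizes a peptide on a major histocompatibility complex (MHC) molecule through its receptor, whose signal is carried into the cell by the CD3 chains. CD4 and CD8 are coreceptors that bind MHC class II and class I, and both bring the kinase LCK to the receptor. CD28 adds a second, costimulatory signal, CD5 damps receptor signaling, and FOXP3 is the transcription factor that defines regulatory T cells. In the lung, such cells are a minor part of the tissue, carried in the blood or resident near airways and vessels.

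Read totals recovered from the FPKM values were 15483046 to 19026843 per library. Markers of lung cells were high in each library, with Sftpc, Sftpb, Ager, Scgb1a1, Cdh5 and Cldn5 summing to between 20115 and 44542 FPKM. The sex-linked genes divided the libraries by group: Xist, which silences an X chromosome in females, had 34.1 ± 8.43 FPKM in IPF and 0.0493 ± 0.0225 FPKM in sham lungs (SD, n = 5 per group), and the Y-linked Ddx3y, Eif2s3y, Kdm5d and Uty had 0 reads in all 5 IPF libraries. All 8 listed genes of the circadian clock were also called, 2 with higher and 6 with lower IPF levels (limma adjusted p under 0.05). In each of them but Ciart, IPF replicate 5 was the IPF library nearest the sham group. For Per1 it was at 26.3 FPKM, with 6.52 to 13.4 FPKM in the other IPF libraries and 36.4 to 49.2 FPKM in sham. The operation, the sex of the mice and whatever moved the clock genes cannot be told apart in these libraries. Sham replicate 1 had the most genes with a value above 0 (25486, against 22475 to 23575 in the others) and the lowest sum of pan-leukocyte genes. IPF replicate 3 was highest in its group for 6 of the 10 T cell genes, and it alone held reads of Glycam1, a mucin-like gene of the high endothelial venules of lymph nodes: 226 reads (5.60 FPKM), with 0 reads in each of the other 9 libraries. The main results are therefore also given without these libraries where that moved them.

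Of the 10 T cell genes, 9 had a higher and 1 a lower mean of log2(FPKM + 0.1) in the IPF group, and 50.4% of the 20448 genes tested were higher. The log2 fold changes of the members ran from -0.19 for Foxp3 to 0.62 for Cd8a, with a median of 0.35, beside a median of 0.0016 over all genes tested. All 10 passed the filter of a mean of 0.1 FPKM. By limma with Benjamini-Hochberg adjustment over all genes, 1 of the 10 members (Cd4) had an adjusted p under 0.05, against 5.85% of all genes (3.71% higher and 2.14% lower), so that 1 in 10 members lies near the background. When each library was left out in turn, 0 of the 10 were called in 9 of the 10 cases, and 1 without IPF replicate 5; 0 were called without the filter or under a replicate block. None of the 10 also passed an absolute log2 fold change of 1, which 1.14% of all genes did. An unadjusted limma p under 0.05 was reached by 5 of the 10 members (Cd4, Cd3g, Cd8a, Cd8b1 and Lck) and by 19.5% of all genes. The IPF and sham libraries did not overlap for 2 members, Cd3g and Cd4, against 7.29% of all genes (4.52% with the IPF group higher). In whole tissue, a change in the number of T cells and a change in the RNA each one holds cannot be told apart.

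**Figure D1:**
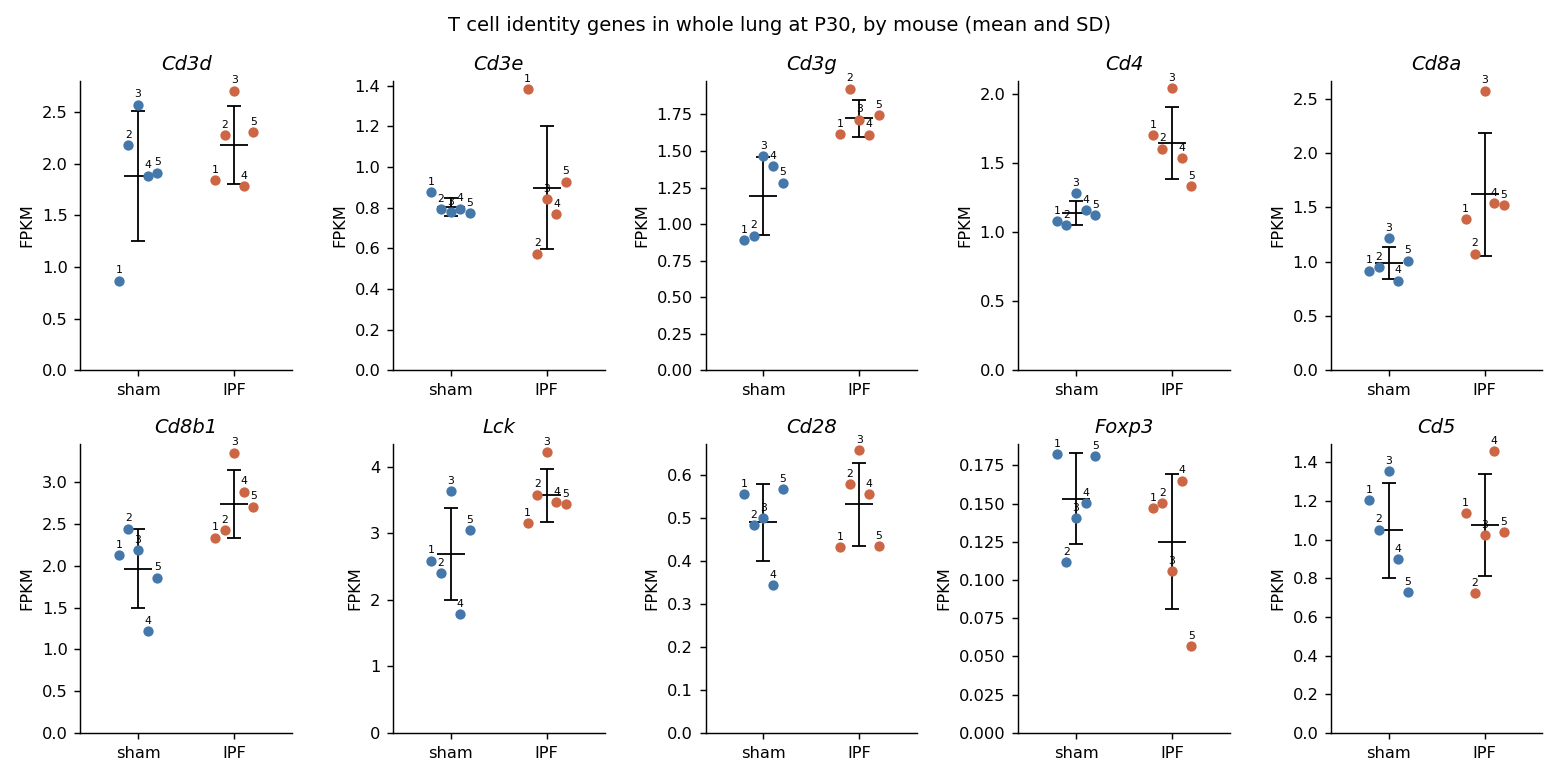
FPKM (vertical axes, from 0) of the 10 T cell identity genes in each sham (blue) and IPF (orange) lung, with the replicate number above each point and the group mean and SD as a black bar. Cd4 and Cd3g separate the groups without overlap, Cd8a, Cd8b1 and Lck overlap in few libraries, and Cd3d, Cd28, Cd5, Cd3e and Foxp3 overlap broadly.

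The CD3 chains, which pair with the T cell receptor in fixed proportions, gave log2 fold changes of different size, none of which passed the test. Cd3g (ENSMUSG00000002033, chromosome 9 of GRCm38, 44969572 to 44980431), Cd3d (ENSMUSG00000032094, 44981786 to 44987339) and Cd3e (ENSMUSG00000032093, 44998740 to 45009627) lie in a row on chromosome 9, with Cd3g and Cd3d head to head and 1354 bases between them. The 250 bases before the RefSeq start of each (GRCm38.p6, 5′ to 3′ on the gene's strand) are shown for these neighbors. Whether these sequences bear on the levels of the genes was not tested. Capitals mark matches on either strand to AGGAAG (a core bound by ETS factors) or CTTTGA (a core bound by TCF and LEF factors).
Cd3g, chr9:44980432-44980681, minus strand: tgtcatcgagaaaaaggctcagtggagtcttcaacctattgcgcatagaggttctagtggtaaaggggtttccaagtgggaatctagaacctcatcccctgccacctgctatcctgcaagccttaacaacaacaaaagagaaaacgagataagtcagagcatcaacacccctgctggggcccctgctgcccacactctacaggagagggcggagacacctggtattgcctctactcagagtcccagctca
Cd3d, chr9:44981536-44981785, plus strand: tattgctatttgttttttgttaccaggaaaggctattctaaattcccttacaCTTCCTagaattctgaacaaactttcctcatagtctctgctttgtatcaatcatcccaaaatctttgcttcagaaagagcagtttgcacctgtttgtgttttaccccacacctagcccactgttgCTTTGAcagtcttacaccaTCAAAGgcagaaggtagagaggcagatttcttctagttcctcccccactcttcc
Cd3e, chr9:45009612-45009861, minus strand: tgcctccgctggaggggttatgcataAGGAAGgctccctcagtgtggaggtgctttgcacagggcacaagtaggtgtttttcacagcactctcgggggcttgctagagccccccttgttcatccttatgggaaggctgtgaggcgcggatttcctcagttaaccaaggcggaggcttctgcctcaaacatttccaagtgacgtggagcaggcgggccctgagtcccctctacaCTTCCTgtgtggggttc
The window of Cd3d held 2 matches to CTTTGA, 73 and 54 bases before the start, and 1 to AGGAAG, and that of Cd3e held 2 to AGGAAG, at 224 and 17 bases. That of Cd3g held neither motif. Of all 32851 RefSeq windows of this length, 13.8% held CTTTGA and 29.5% AGGAAG, and over the 9 windows of the 7 members listed these counts were 1 and 6. The cores TGTGGT of RUNX factors (14.0% of windows) and TATAAA of the TATA box (12.4%) were each found in 1 of the 9, an Lck and a Foxp3 window. Matches did not overlap each other, and a match is a string of letters, not a measured site. Cd4, Cd8b1 and Cd28 are not in the RefSeq table used here.

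Cd3g was at 1.62, 1.93, 1.72, 1.61 and 1.75 FPKM in IPF replicates 1 to 5 and at 0.891, 0.921, 1.47, 1.40 and 1.28 FPKM in sham replicates 1 to 5. Every IPF library lay above every sham library, and sham replicates 1 and 2 were the lowest. Its log2 fold change of 0.52 (standard error 0.15, 95% confidence interval 0.19 to 0.85) had a limma adjusted p of 0.0696 over all genes and a two-sided exact permutation p of 0.00794, the smallest that 5 against 5 libraries can give. Without sham replicate 1 it was 0.43 (limma adjusted p = 0.126).

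Cd3d was at 1.84, 2.28, 2.71, 1.78 and 2.30 FPKM in the IPF libraries and at 0.869, 2.18, 2.57, 1.89 and 1.91 FPKM in the sham libraries. The groups overlapped, and the difference of their means rested on sham replicate 1, which held 26 reads of Cd3d: with it the log2 fold change was 0.26 (standard error 0.24) at a limma adjusted p of 0.605, and without it 0.024 at 0.958. Cd3e was at 1.38, 0.573, 0.843, 0.767 and 0.928 FPKM in the IPF libraries and between 0.771 and 0.877 FPKM in the sham libraries. IPF replicates 1 and 2 were the highest and the lowest of all 10, so the IPF group spread about the narrow sham range on both sides. Its log2 fold change was 0.098 (95% confidence interval -0.32 to 0.52, limma adjusted p = 0.833), -0.057 without IPF replicate 1 and 0.23 without IPF replicate 2. Cd3e overlaps the antisense gene Gm48719 (mean 0.126 FPKM), and whether strand was used in counting is not given in the sources used here. The log2 ratio of Cd3g to Cd3e within a library, chosen after its values were seen, was 0.91 ± 0.49 in the IPF and 0.49 ± 0.36 in the sham group (SD, n = 5 each), at an exact permutation p of 0.127, so that the unequal changes of these 2 chains were within the spread between libraries.

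Lck (ENSMUSG00000000409, chromosome 4, 129548344 to 129573641), the kinase that starts receptor signaling, had the highest level of the 10 genes per length. It was at 3.15, 3.58, 4.23, 3.47 and 3.43 FPKM in the IPF libraries and at 2.59, 2.40, 3.64, 1.78 and 3.04 FPKM in the sham libraries. Of the sham libraries, 4 lay below all IPF libraries and sham replicate 3 lay within their range. The log2 fold change was 0.43 (standard error 0.16), with a limma adjusted p of 0.169 and an exact permutation p of 0.0556. Without IPF replicate 3 it was 0.37 (limma adjusted p = 0.279).

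Cd4 (ENSMUSG00000023274, chromosome 6, 124864692 to 124888221) was the 1 member that passed the test. It was at 1.70, 1.61, 2.05, 1.54 and 1.33 FPKM in IPF replicates 1 to 5 and at 1.08, 1.05, 1.28, 1.16 and 1.12 FPKM in sham replicates 1 to 5. The groups did not overlap, with the lowest IPF library close above the highest sham library, and IPF replicate 3 was the highest. Cd4 rose 1.40-fold, a log2 fold change of 0.48 (standard error 0.12, 95% confidence interval 0.21 to 0.76), with a limma adjusted p of 0.0440 and an exact permutation p of 0.00794, on 95 to 156 reads per IPF and 69 to 83 per sham library. This call was close to the threshold: when single libraries were left out, the limma adjusted p was under 0.05 in 1 of 10 cases, that without IPF replicate 5 (0.0189), and 0.0728 without IPF replicate 3 and 0.0842 without sham replicate 1. In those 10 cases the log2 fold change stayed between 0.41 and 0.55, and with a pseudocount of 1 it was 0.30 (limma adjusted p = 0.0473). Without the filter on low values, where more genes were tested, the limma adjusted p was 0.0863, and under a replicate block it was 0.0689.

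The 2 chains of the CD8 coreceptor lie 35932 bases apart on chromosome 6, Cd8b1 (ENSMUSG00000053044, 71322788 to 71337494) before Cd8a (ENSMUSG00000053977, 71373427 to 71379173). The window before the start of Cd8a, shown as the member with the largest change, held none of the 4 motifs searched.
Cd8a, chr6:71373177-71373426, plus strand: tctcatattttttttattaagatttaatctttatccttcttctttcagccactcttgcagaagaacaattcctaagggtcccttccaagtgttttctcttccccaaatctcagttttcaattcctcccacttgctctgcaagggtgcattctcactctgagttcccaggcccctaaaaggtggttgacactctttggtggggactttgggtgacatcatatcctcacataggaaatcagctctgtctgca
Cd8a was at 1.39, 1.07, 2.57, 1.54 and 1.52 FPKM in the IPF libraries and at 0.917, 0.951, 1.22, 0.825 and 1.01 FPKM in the sham libraries. Of the IPF libraries, 4 lay above all sham libraries, and IPF replicate 2 lay below sham replicate 3. Its log2 fold change of 0.62 was the largest of the 10 members (standard error 0.20, 95% confidence interval 0.18 to 1.06), with a limma adjusted p of 0.103 and an exact permutation p of 0.0159. IPF replicate 3 was far above the rest, and without it the change was 0.45 (limma adjusted p = 0.126).

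Cd8b1, found on conventional CD8 T cells, was at 2.34, 2.43, 3.35, 2.89 and 2.71 FPKM in the IPF libraries and at 2.13, 2.44, 2.18, 1.21 and 1.86 FPKM in the sham libraries. IPF replicate 3 was again the highest, sham replicate 4 was the lowest, and the groups overlapped through sham replicate 2. The log2 fold change was 0.48 (standard error 0.17), with a limma adjusted p of 0.143 and an exact permutation p of 0.0238. Without IPF replicate 3 it was 0.41 (limma adjusted p = 0.240).

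Neither regulator of the response to the receptor differed beyond its spread. Cd28 (ENSMUSG00000026012, chromosome 1, 60716800 to 60773359) had 0.531 ± 0.0973 FPKM in IPF lungs and 0.489 ± 0.0893 FPKM in sham lungs (SD, n = 5 per group), on 35 to 76 reads per library. Its log2 fold change was 0.10 (95% confidence interval -0.30 to 0.50, limma adjusted p = 0.819), and with each library left out it ran from 0.00068 (without sham replicate 4) and 0.031 (without IPF replicate 3) to 0.16 (without IPF replicate 1). Cd5 (ENSMUSG00000024669, chromosome 19, 10718143 to 10738974) had 1.08 ± 0.263 FPKM in IPF lungs and 1.05 ± 0.246 FPKM in sham lungs (SD, n = 5 per group), with the lowest and the highest library both in the IPF group. Its log2 fold change was 0.034 (95% confidence interval -0.40 to 0.47, limma adjusted p = 0.953), and its sign turned without IPF replicate 4 (-0.075), sham replicate 4 (-0.0092) or sham replicate 5 (-0.077). The interval of Cd28 includes the change measured for Cd4, and that of Cd5 ends just below it.

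Foxp3 (ENSMUSG00000039521, chromosome X, 7579676 to 7595243) was the least abundant member. It was at 0.147, 0.150, 0.106, 0.165 and 0.0567 FPKM in the IPF libraries and at 0.182, 0.112, 0.141, 0.151 and 0.181 FPKM in the sham libraries. These values rest on 4 to 12 reads per library, and 2 IPF libraries (replicates 3 and 5) lay below all sham libraries. The log2 fold change was -0.19 (95% confidence interval -0.74 to 0.37, limma adjusted p = 0.743), and a pseudocount of 0.1 is near the level of the gene itself. It was -0.036 with a pseudocount of 1, -0.33 with 0.01, and -0.062 without IPF replicate 5, which held 4 reads. Foxp3 is X-linked and, as for the other members, operation and sex cannot be told apart. It overlaps Flicr, Gm36995 and Ccdc22.

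**Figure D2:**
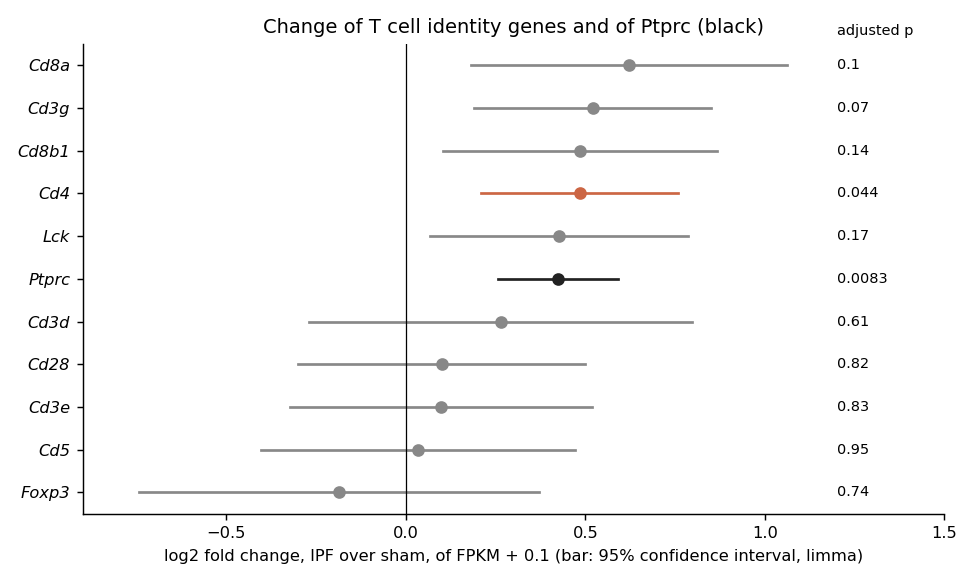
Log2 fold change of FPKM + 0.1, IPF over sham (horizontal axis), of the 10 T cell identity genes and of the leukocyte gene Ptprc (black), with 95% confidence intervals from limma and the adjusted p at the right. Cd4 (orange) is the 1 member with an adjusted p under 0.05, and 5 members from Cd8a to Lck have intervals above 0.

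Ratios within a library ask whether the subsets moved unequally, and 6 were tested. The log2 ratio of Cd4 to Cd8a was 0.064 ± 0.35 in the IPF and 0.20 ± 0.15 in the sham group (SD, n = 5 each), a difference of -0.14 (95% interval from the pooled SD -0.53 to 0.25), with an exact permutation p of 0.460, also 0.460 when adjusted over the 6 ratios. The ratio of the CD8 chains, Cd8b1 to Cd8a, differed by -0.14 (interval -0.55 to 0.28; exact permutation p = 0.460, adjusted 0.460). Neither difference was larger than the spread between libraries, and both intervals also allow a shift of moderate size. With each library left out, Cd4 to Cd8a ran from -0.26 (without IPF replicate 2) to -0.042 and Cd8b1 to Cd8a from -0.24 (without sham replicate 4) to -0.037, both smallest without IPF replicate 3. Cd4 to Cd3e differed by 0.39 (exact permutation p = 0.135, adjusted 0.202) and Cd8a to Cd3e by 0.52 (exact permutation p = 0.0873, adjusted 0.202). Without IPF replicate 1, which had the highest Cd3e, these 2 differences were 0.53 (exact permutation p adjusted over the 6 ratios 0.0476) and 0.72 (adjusted 0.0317). Without IPF replicate 3, Cd8a to Cd3e differed by 0.34.

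Foxp3 to Cd4 was the ratio that differed. It was -2.87, -2.77, -3.38, -2.63 and -3.19 on the log2 scale in IPF replicates 1 to 5 and -2.07, -2.44, -2.52, -2.33 and -2.12 in sham replicates 1 to 5. All 5 IPF libraries lay below all 5 sham libraries, with a difference of -0.67 (95% interval -1.05 to -0.29), an exact permutation p of 0.00794 and 0.0476 when adjusted over the 6 ratios. In group means, Foxp3 FPKM was 7.60% of Cd4 FPKM in the IPF and 13.4% in the sham group, from 44 Foxp3 reads beside 589 Cd4 reads and 50 beside 378. The ratio joins a gene that passed the test to one that did not pass it and has few reads. With each library left out, the difference stayed between -0.76 and -0.57. The exact permutation p adjusted over the 6 ratios was then 0.0238 to 0.0476 without an IPF library and 0.0952 without a sham library, near the smallest values that so few libraries allow. The size depends on the pseudocount, with a difference of -0.34 at 1 and -0.85 at 0.01, and under a replicate block the adjusted p was 0.281 by a sign-flip permutation test that cannot go below 0.05 with 5 pairs.

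**Figure D3:**
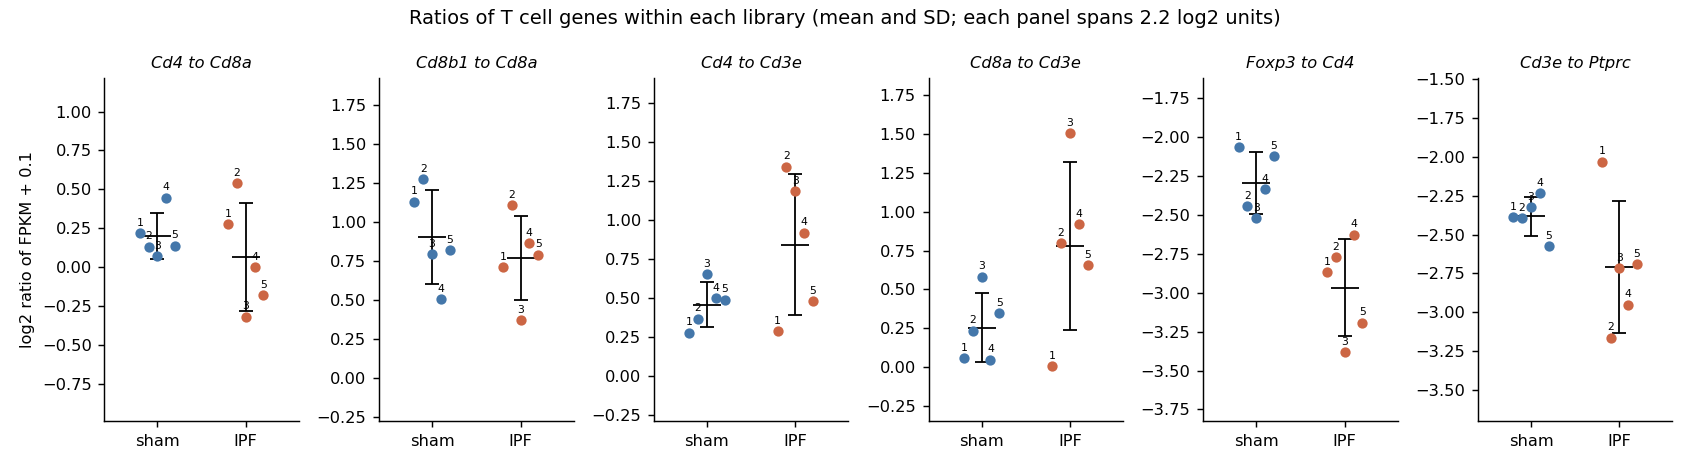
Log2 ratio of FPKM + 0.1 between 2 genes of the same library (vertical axes, each spanning 2.2 log2 units) in the sham (blue) and IPF (orange) groups, with replicate numbers, mean and SD. Foxp3 to Cd4 is the 1 ratio in which all 5 IPF libraries lie below all sham libraries.

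Other genes of the T cell receptor pathway were read from a list. Of 24 genes of receptor chains and signaling, 22 had a higher and 2 a lower mean in the IPF group, with a median log2 fold change of 0.27, and 4 were called higher by limma, beside 3.71% of all genes. Trbc2, a constant segment of the receptor β chain, rose from 7.20 ± 1.08 to 11.3 ± 1.27 FPKM (SD over 5 lungs each), a change of 0.65 (limma adjusted p = 0.00820). It has a near-identical neighbor, Trbc1 (0.51, limma adjusted p = 0.0980), with which reads could be shared, and the α chain segment Trac was at 6.30 ± 0.772 against 4.89 ± 1.605 FPKM (SD over 5 lungs each), a change of 0.42 (limma adjusted p = 0.298). Also called were Fyb, an adaptor that other leukocytes use too (0.77, limma adjusted p = 0.0109), and Cd247, the ζ chain that natural killer cells share (0.77, limma adjusted p = 0.0414). Zap70, the kinase recruited to the CD3 chains, was at 2.05 ± 0.712 and 1.91 ± 0.518 FPKM (SD, n = 5 each; limma adjusted p = 0.889).

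Genes of T cell state were read from further lists, beside 5.85% of all genes called and 19.5% with an unadjusted limma p under 0.05. Of 14 costimulatory and checkpoint genes 0 had a limma adjusted p under 0.05, and 0 had an unadjusted p under 0.05 (10 higher, 4 lower, median 0.075). The most abundant of them, Btla, had 4.35 ± 0.499 FPKM in IPF lungs and 3.72 ± 0.574 FPKM in sham lungs (SD, n = 5 per group). Of 14 transcription factors of the T lineage, 2 were called, both higher, and 4 had an unadjusted limma p under 0.05. Ets1, which other cells also express, was among those called (log2 fold change 0.32, limma adjusted p = 0.01004), and the median was 0.080. The 13 genes of naive and memory cells and of homing, 10 with a higher and 3 with a lower mean, had a median of 0.18. Of these 13, 1 was called higher, and 7 had an unadjusted limma p under 0.05, in either direction. Of 9 further genes of regulatory T cells, 7 were tested and 1, Ikzf4, was called, the only 1 with an unadjusted limma p under 0.05. Ikzf4 rose by 1.64 (limma adjusted p = 0.00670). It was at 1.84 to 2.60 FPKM in IPF replicates 1 to 4, 0.726 FPKM in IPF replicate 5 and 0.381 to 0.602 FPKM in sham. Whether its rise came from regulatory T cells was not tested. The median of the list was 0.049. Il2ra, the IL-2 receptor α chain, was at 0.435 ± 0.0876 and 0.508 ± 0.119 FPKM (SD, n = 5 each, limma adjusted p = 0.690). Of 10 genes of γδ and innate-like T cells, 9 were tested, with a median of 0.15. Of these 9, 1 was called higher and 1 lower, and 3 had an unadjusted limma p under 0.05. Tcrg-C2, a γ chain constant segment with close paralogs, rose by 1.11 (limma adjusted p = 0.0137). Zbtb16, a factor of innate-like T cells that other cells also use, fell, with a change of -3.25 (limma adjusted p = 0.0162). Its level was 1.11 to 3.81 FPKM in IPF replicates 1 to 4. In IPF replicate 5 it was 24.7 FPKM, close to the sham range of 26.9 to 47.3 FPKM.

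Several genes of other leukocytes also differed between the groups, and their part in the results above was not tested. Ptprc (CD45), carried by all leukocytes, was at 5.96, 5.93, 6.09, 6.60 and 6.53 FPKM in the IPF libraries and at 5.01, 4.60, 4.30, 4.10 and 5.10 FPKM in the sham libraries. The groups did not overlap, and the log2 fold change was 0.42 (standard error 0.08, limma adjusted p = 0.00825), close to those of Cd4 and Lck. Relative to Ptprc, Cd3e differed by -0.33 between the groups (interval -0.78 to 0.13; exact permutation p = 0.127, adjusted 0.202), and by -0.50 without IPF replicate 1 (exact permutation p adjusted over the 6 ratios 0.0238) and -0.21 without IPF replicate 2. Chosen after the values were seen, the same ratio of Cd4 differed by 0.059 (interval -0.29 to 0.40; exact permutation p = 0.698) and that of Cd8a by 0.20 (interval -0.30 to 0.70; exact permutation p = 0.444).

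Of 6 pan-leukocyte genes, 3 were called higher (Ptprc, Cd52 and Cd53), with a median of 0.50, and their summed level was 131.7 to 158.2 FPKM in the IPF and 75.1 to 113.1 FPKM in the sham libraries. Of 8 B cell genes, 6 were called higher, with a median of 0.80, among them Ms4a1 (1.19, limma adjusted p = 0.00336) and Cd79a (1.02, 0.00591); the summed level was 38.5 to 57.0 against 20.3 to 32.7 FPKM. Of 6 natural killer genes, Klra8 (1.32, limma adjusted p = 0.0177) and Ncr1 (1.18, 0.0178) were called higher, with a median of 1.05, and the sum was 3.23 to 5.06 against 1.11 to 2.67 FPKM. Of 10 cytotoxic effector genes, which natural killer and CD8 T cells share, 8 were tested and Prf1 (1.09, limma adjusted p = 0.0129), Gzma (1.21, 0.0253) and Gzmb (0.97, 0.0394) were called higher, with a median of 0.83. The median change of the 10 T cell members, 0.35, was the smallest of these 5 medians, a description that was not tested.

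Myeloid lists had 0 genes with a limma adjusted p under 0.05: 6 macrophage genes had a median of 0.20 and 2 unadjusted p under 0.05, 6 neutrophil genes a median of 1.03 and 4, and 6 dendritic cell genes a median of 0.33 and 0. The most abundant were Csf1r (limma adjusted p = 0.0839), S100a9 (0.186) and Clec9a (0.659). IPF replicate 5 stood apart in the neutrophil genes, with a summed level of 297.4 FPKM against 51.7 to 72.8 FPKM in the other IPF and 14.6 to 71.4 FPKM in the sham libraries. Of 9 chemokines that attract T cells, 7 were tested with a median of 0.38, and Cxcl10, a ligand of CXCR3 that interferons induce, rose by 0.99 (limma adjusted p = 0.0402). Of the 6 lung cell genes, the endothelial Cldn5 rose by 0.56 (limma adjusted p = 0.0107), with a median of 0.0024, close to that of all genes.

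**Figure D4:**
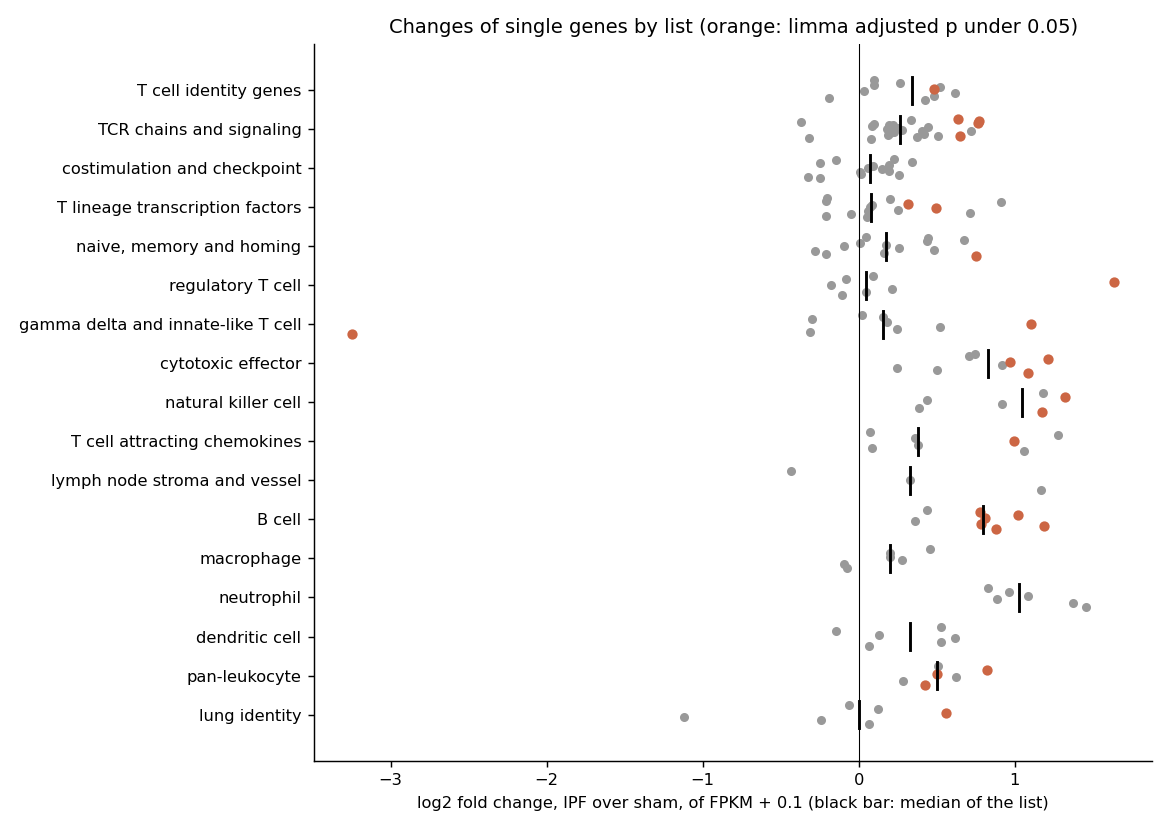
Log2 fold change of FPKM + 0.1, IPF over sham (horizontal axis), of single genes (points) in the T cell identity genes and in 16 other lists, with list medians as black bars and genes of limma adjusted p under 0.05 in orange. The medians of the B cell, natural killer, cytotoxic and neutrophil lists lie further right than that of the T cell identity genes, and the neutrophil values include IPF replicate 5, which stood apart with a sum of 297.4 FPKM.

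The thymus and mediastinal lymph nodes lie beside the lung, so genes of each were read. The thymic epithelial genes Psmb11 and Foxn1 had 0 reads in all 10 libraries, and Ccl25 and Prss16 gave limma adjusted p of 0.761 and 0.847. The 5 thymocyte genes (Rag1, Rag2, Dntt, Ptcra, Arpp21) were all below the filter, and their summed level was 0.0523 to 0.475 FPKM in the IPF and 0.0634 to 0.236 FPKM in the sham libraries. Their highest sum, 27 reads, was in IPF replicate 3, the library in which Cd3d, Cd4, Cd8a, Cd8b1, Lck and Cd28 were highest. Whether these thymocyte reads and the T cell reads of that library share a source was not tested. Genes of lymph node stroma and vessels also singled that library out: their summed level was 10.1 FPKM in IPF replicate 3, 4.14 to 4.64 FPKM in the other IPF libraries and 3.23 to 6.12 FPKM in the sham libraries. Beside Glycam1, it had the most reads of Madcam1 (6, with 0 or 1 in the others), the addressin of such venules, and the highest level of Cxcl13, a chemokine of B cell follicles (2.76 FPKM, with at most 1.75 FPKM in the others). These 3 genes were named after their values were seen. Of the list, 3 genes were tested, and 0 had a limma adjusted p or an unadjusted p under 0.05; its most abundant gene, Chst4, gave 0.366 and was lowest in IPF replicate 3. Whether lymph node tissue was part of that lung sample was not tested. Without IPF replicate 3, Cd4 was still higher in each remaining IPF library than in each sham library, and its log2 fold change was 0.41 (limma adjusted p = 0.0728). The difference in Foxp3 to Cd4 was -0.57 without it (exact permutation p adjusted over the 6 ratios 0.0476).

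The genes most like the CD3 chains in how single libraries deviated from their group were sought among 13435 genes with a mean of at least 1 FPKM, by Pearson's r with the mean log2 deviation of Cd3d, Cd3e and Cd3g over the 10 libraries. The 5 highest were Nrtn (r = 0.970), Cdipt (0.954), Enho (0.952), Hfe (0.947) and Abhd8 (0.946), none of which is on the T cell lists. They were chosen for this value among many genes, so no test is given, and the points share sham replicate 1, whose CD3 mean deviated most, by -0.40; without it their r was 0.864 to 0.932. The receptor segments Trbc2, Trbc1 and Trac had r of 0.885, 0.719 and 0.444, and without sham replicate 1 of 0.779, 0.484 and 0.138. Cd2, an adhesion receptor of T cells, had an r of 0.073, and -0.047 without that library. The summed reads of the 3 CD3 genes, 133 to 264 per library, limit what such deviations can show.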

How the data were processed

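Whole-lung RNA was sequenced in 5 IPF and 5 sham libraries, with a KAPA kit by the methods and a NEBNext kit by the labels. Per the methods, the authors trimmed reads with Fastp, aligned them with HISAT2 and quantified genes with StringTie, and the authors deposited FPKM values of 54532 genes in each library. GRCm39 is given in the methods and GRCm38 in the submitters' processing notes. Positions fit the latter, because chromosome 1 has genes up to 195323493, past its 195154279 bases in GRCm39. Multiplied by length, the FPKM values became whole steps within each library (100% of values, tolerance 0.01), from which read numbers were recovered. The library size behind these steps differed from the summed reads in the manner of a scaling factor, and median-of-ratios factors on the FPKM values were 0.9995 to 1.015.

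Genes with a mean of at least 0.1 FPKM (20448) entered a limma test (limma 3.58.1, R 4.3.3, trended variances) on log2(FPKM + 0.1) for IPF over sham, with Benjamini-Hochberg adjustment over all of them. Called means an adjusted p under 0.05. A fold change on this scale understates the change of low genes. The authors used DESeq2, which was not run here; the recovered reads were tested with limma voom as an alternative. Single values were compared by exact permutation over all 252 assignments. Read limits cover counting error only. The fit was tested on simulated data. Of 2 rows with the same symbol (Ccl19, Ccl21a), the more abundant was taken.

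The members and the 20 gene lists were chosen with earlier results of these data known. All members are named; in each list, up to 4 called genes by smallest p are named, or the most abundant gene where none was called. Other genes (Trac, Trbc1, Zap70, Il2ra, those of the thymus and lymph node, and the ratios of Cd4 and Cd8a to Ptprc and of Cd3g to Cd3e) were named after their values were seen. Alternatives were a pseudocount of 1 or 0.01, no filter or one at a mean of 1 FPKM, scaling by median of ratios, blocking on the replicate number, an untrended variance, limma voom on the recovered reads, and leaving out each library. Python 3.11.15, pandas 2.3.3, numpy 2.4.6 and scipy 1.17.1 were used. Fdcsp, of the lymph node list, was not found by symbol. Some called genes of the lists are not reported here.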

Additional observations from a re-analysis of the deposited data

Results flagged for a closer look

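In 32 groups of 5 values (the 10 members and the 6 ratios, in each group), 1 had an end value unusually far from the rest for 5 samples, while chance alone gives about 1 in 20. It was Cd3e in the sham group, where sham replicate 1 was at 0.877 FPKM and the other sham libraries lay between 0.771 and 0.795 FPKM (gap over range 0.780, limit 0.71). The whole sham range corresponds to 48 to 59 reads.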

How the results depend on the processing

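At 4 to 234 reads per member and library, the read number limits the precision, most for Foxp3, whose log2 fold change has a 95% confidence interval of -0.74 to 0.37. The count of members called was 1 in the main analysis and 0 without the filter on low values or with the replicate number as a block, and 0 to 1 when each library was left out; the count over all genes, 1196 in the main analysis, ran from 775 (without IPF replicate 4) to 1620 (without IPF replicate 5). Cd4 had a limma adjusted p under 0.05 in 7 of 18 alternatives (range 0.0189 to 0.0992), and none of the other 9 members did in any alternative that tested it. Cd3e, Cd28 and Foxp3 were not tested at a mean of at least 1 FPKM. With each library left out, Cd3e ran from -0.057 (without IPF replicate 1) to 0.23 and Cd5 from -0.077 (without sham replicate 5; also -0.075 without IPF replicate 4 and -0.0092 without sham replicate 4) to 0.15, so their sign was not fixed. Foxp3 to Cd4 had an adjusted exact permutation p under 0.05 in 7 of 13 alternatives; its difference was -0.76 to -0.57 with each library left out, and -0.34 and -0.85 with pseudocounts of 1 and 0.01. With the replicate block its difference was -0.67 and its adjusted p 0.281, from a sign-flip test of 5 pairs that cannot go below 0.05. Leaving out each library gave 0.26 to 0.53 for Cd4 to Cd3e, 0.34 to 0.72 for Cd8a to Cd3e and -0.50 to -0.21 for Cd3e to Ptprc, each with an adjusted p under 0.05 only without IPF replicate 1 (0.0476, 0.0317 and 0.0238). The correlation of deviations of same-numbered libraries was -0.020 to 0.0953. These values lie under the limit of 0.1 set for pairing, so the numbers were not taken to pair the libraries. However, 6 of 10 libraries correlated best with their own number, and whether same-numbered libraries share a batch was not tested. The replicate block ended the call of Cd4 (limma adjusted p = 0.0689) and gave 1045 genes in all. The cause of these changes was not tested.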

Other observations

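Deviations from the group mean were also compared between members, over the 10 libraries and for 4 pairs. Cd8a and Cd8b1, the chains of the same coreceptor, gave Pearson's r = 0.595 (permutation p = 0.0247, 0.0988 adjusted over the 4 pairs) and Spearman's rho = 0.636 (permutation p = 0.0600, 0.240 adjusted), and r = 0.611 without the libraries farthest from the median of Cd8a (IPF replicates 2 and 3). Cd3d and Cd3g gave r = 0.616 (permutation p = 0.131, 0.197 adjusted) and rho = 0.479 (permutation p = 0.216, 0.432 adjusted), but r = -0.021 without sham replicates 1 and 3, so this relation rests on those libraries. Cd4 and Cd8a gave r = 0.611 (permutation p = 0.148, 0.197 adjusted) and rho = 0.273 (permutation p = 0.499, 0.532 adjusted), and r = 0.343 without IPF replicates 3 and 5. Cd3d and Cd3e gave r = -0.27 (permutation p = 0.204, 0.204 adjusted) and rho = -0.22 (permutation p = 0.532, 0.532 adjusted), and r = -0.31 without sham replicates 1 and 3. None of the 4 relations passed 0.05 after adjustment.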
